A study of Mus musculus with 12 samples.

Results

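Rps4l is a copy of the gene for ribosomal protein S4, and it was measured by 1 probe, A_51_P406105, that is printed at 10 spots on each array. Gene symbols were looked up only for the 50 probes with 10 spots, and it is 1 of the 45 that matched, the named probes. The array holds 60706 probes that are neither controls, spike-ins nor negative probes, and the others were not looked up. The probe was chosen by its total and supernatant signal, which were known to be higher in knockout kidneys, so all its values between genotypes are given as a description, without a test. The arrays hold kidney RNA of 6 male C57BL/6 mice aged 6 to 8 weeks, 3 of them wild type (WT) and 3 with a conditional knockout of Mettl3 (cKO). Mettl3 encodes the catalytic subunit of the enzyme complex that places N6-methyladenosine (m6A) on RNA. All 6 mice, the controls included, had been given glyoxylate at 100 mg/kg in 200 µl by daily intraperitoneal injection for 7 days, which makes oxalate and leads to calcium oxalate deposits in the kidney. The labels name neither the promoter nor the cells in which Mettl3 was deleted. An m6A antibody was used to pull down part of the RNA of each kidney (IP, read in red as Cy5), the unbound rest is the supernatant (read in green as Cy3), and both were hybridised to 1 array. In this way 12 samples lie on 6 arrays, and 3 arrays per genotype limit the precision of every value.

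Ribosomal protein S4 is a component of the small ribosomal subunit, the part of the ribosome that reads the messenger RNA. In the mouse it is encoded on the X chromosome by Rps4x, a gene that is expressed in nearly every cell. Messenger RNAs of ribosomal proteins are abundant and short, and they have often been copied back into the genome by reverse transcription, so that most genes of this family are accompanied by near-identical pseudogenes. m6A is placed mainly on long internal exons and around the stop codon of a transcript, and the antibody recovers transcripts that carry it.

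RefSeq's gene list for GRCm38.p6, from which only names and neighbours were taken, holds 4 loci whose symbol starts with Rps4. Rps4x is the protein-coding one, with 2 transcripts and 2 proteins. Rps4x-ps and Rps4l-ps are pseudogenes without a transcript. Rps4l itself has 1 transcript and 0 proteins and is classed as a transcribed pseudogene, so in this table it is a transcribed copy rather than a gene for a ribosomal protein. Its older names in the table include Rps4y2 and 1110033J19Rik. It lies within the span of Tmtc1, which encodes a mannosyltransferase of the endoplasmic reticulum. Among 397 symbols of the form Rps or Rpl followed by a digit, the Rps6k kinases left out, 87 are protein-coding, 301 are pseudogenes and 8 are transcribed pseudogenes. Of the 45 named probes, 44 stand for protein-coding genes and Rps4l is the only transcribed pseudogene.

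No named probe carried the symbol Rps4x, Rps4x-ps or Rps4l-ps, and the other probes were not looked up. The sequence of the Rps4l probe was not used here. Signal of Rps4l and of its copies was therefore not told apart here, and every value below is that of the probe. The lists of large subunit proteins, mitochondrial ribosomal proteins and translation factors had 0 named probes, and the list of small subunit proteins had only Rps4l. Whether other ribosomal protein transcripts varied in the same way was not tested.

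In the IP channel 52.2% to 56.2% of probes were well above background. The supernatant was dimmer on WT arrays 1 and 3, with 38.5% and 31.7% of probes detected (well above background), than on WT array 2 and the cKO arrays, with 50.0% to 57.0%. The file headers give 2 scans, one with WT arrays 1 and 3 and the other with WT array 2 and all 3 cKO arrays. No named probe carried the symbol Mettl3, so the genotypes were not checked against the targeted gene, and the lists of markers of kidney tubules, podocytes, collecting duct, endothelium, fibroblasts and injured tubules had 0 named probes.

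The Rps4l probe was bright. On each of the 6 arrays its 10 spots were all well above background, red as well as green, and 0 were saturated. The median spot brightness was 30.5 to 93.5 times the local background in the IP channel and 28.2 to 165 times in the supernatant channel. Spots marked as outliers by the scanner software were left out, which removed 1 spot on WT array 2 and 3 spots on WT array 3, and 26 WT spots and 30 cKO spots remained.

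In the supernatant, the RNA that the antibody did not bind, the probe was brighter on every cKO array than on any WT array. WT kidneys 1, 2 and 3 had a processed signal, which is background-subtracted and dye-normalised, of 7447, 9599 and 6719. The cKO kidneys 1, 2 and 3 had 16643, 17066 and 21083. The means were 7922 ± 1498 in WT and 18260 ± 2450 in cKO (SD, n = 3), a ratio of 2.31. Before dye normalisation the background-subtracted signal was 706, 940 and 337 (WT) against 2116, 1680 and 2144 (cKO). The groups did not overlap in this unit either, although WT array 3 lay well under the other WT arrays there and not after dye normalisation.

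Arrays were put on one scale by dividing each channel by its 75th percentile over probes, so that a log2 value of 0 is a probe at that percentile. On this scale the supernatant signal of Rps4l was 4.24, 3.86 and 3.92 in WT kidneys 1, 2 and 3, against 5.01, 5.03 and 5.24 in cKO kidneys 1, 2 and 3. The difference was 1.09 ± 0.14 (SE), or 2.13-fold, and a gap of 0.77 separated the highest WT array from the lowest cKO array. Of 30894 probes kept for this channel, 9.44% had all 3 cKO values above all 3 WT values, and 2.1% were higher in cKO by at least as much as Rps4l. Bulk tissue was measured, so more cells that contain a transcript and more of it per cell cannot be told apart.

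The antibody-bound fraction differed in the same direction by a smaller amount. The processed IP signal was 4746, 5692 and 5423 in WT kidneys 1, 2 and 3, against 8278, 8420 and 11767 in cKO kidneys 1, 2 and 3. Before dye normalisation it was 681, 427 and 703 (WT) against 1103, 980 and 1364 (cKO). On the scaled log2 axis it was 3.59, 3.11 and 3.52 (WT) against 4.01, 4.01 and 4.41 (cKO), with WT array 2 the lowest and cKO array 3 the highest. The difference was 0.74 ± 0.20 (SE), or 1.67-fold, with a gap of 0.42 between the groups. Among 33238 probes kept for the IP channel, 6.94% had all cKO values above all WT values, and 4.30% were higher by at least as much.

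**Figure D1:**
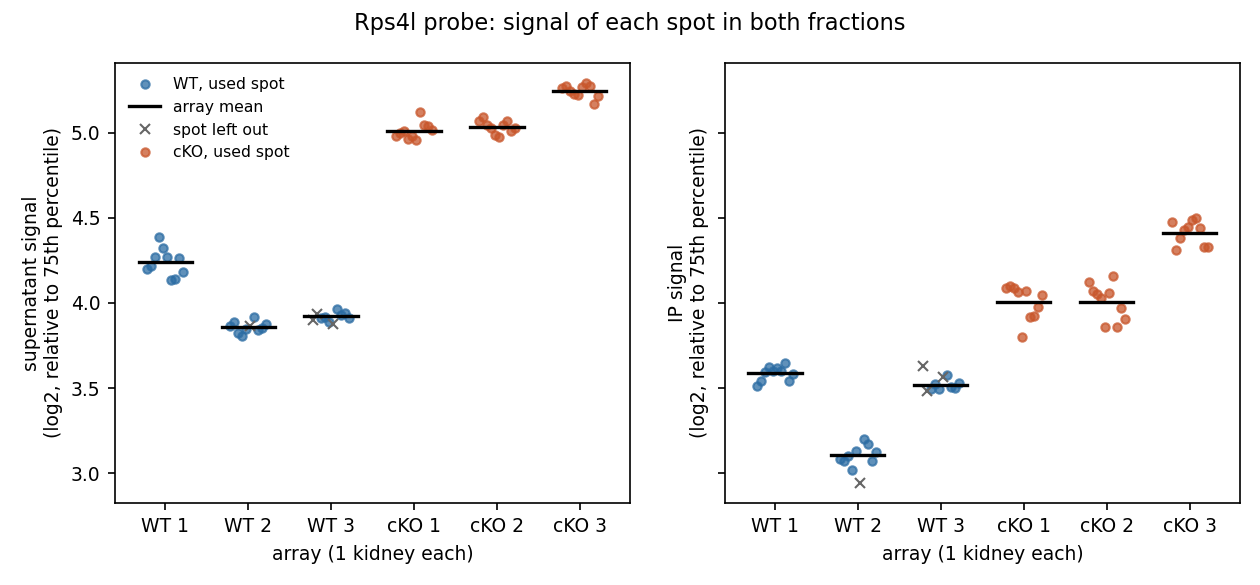
Signal of the Rps4l probe at each spot, in log2 units relative to the 75th percentile of the channel, by array (1 kidney each), in the supernatant (left) and the IP fraction (right). Dots are spots, bars the array means and crosses the spots left out. In the supernatant the WT spots end at 4.39 and the cKO spots begin at 4.96, while in the IP fraction the WT spots reach 3.65 and the cKO spots begin at 3.80.

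The total signal, the log2 of the sum of both scaled channels, was 4.95, 4.53 and 4.74 in WT kidneys 1, 2 and 3, against 5.59, 5.61 and 5.89 in cKO kidneys 1, 2 and 3. On this scale 1 stands for a signal at the 75th percentile red as well as green. Every cKO array was above every WT array, with a gap of 0.64. The means were 4.74 ± 0.21 in WT and 5.70 ± 0.16 in cKO (SD, n = 3), a difference of 0.96 ± 0.15 (SE), or 1.94-fold. Over 35789 probes kept for total signal, the median difference was -0.01, 6.14% had all cKO values above all WT values, and 0.835% (299 probes) were higher in cKO by at least as much as Rps4l, lower ones not counted. The probe was chosen on this value, and nothing is read from its rank.

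Of 37 other named genes with a total signal, 5 had all cKO values above all WT values and 5 had them below, and 1 had a larger difference in size than Rps4l. Over all probes the share that lay lower without overlap was 9.36% in total signal, 7.30% in the supernatant and 10.8% in the IP fraction. The share that lay higher without overlap was 6.14%, 9.44% and 6.94% in the same order. In the supernatant 7 of 33 other named genes lay higher and 2 lower without overlap, and in the IP fraction 2 of 37 lay higher and 9 lower. The median difference over these other named genes was -0.13 in total signal, -0.02 in the supernatant and -0.17 in the IP fraction.

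**Figure D2:**
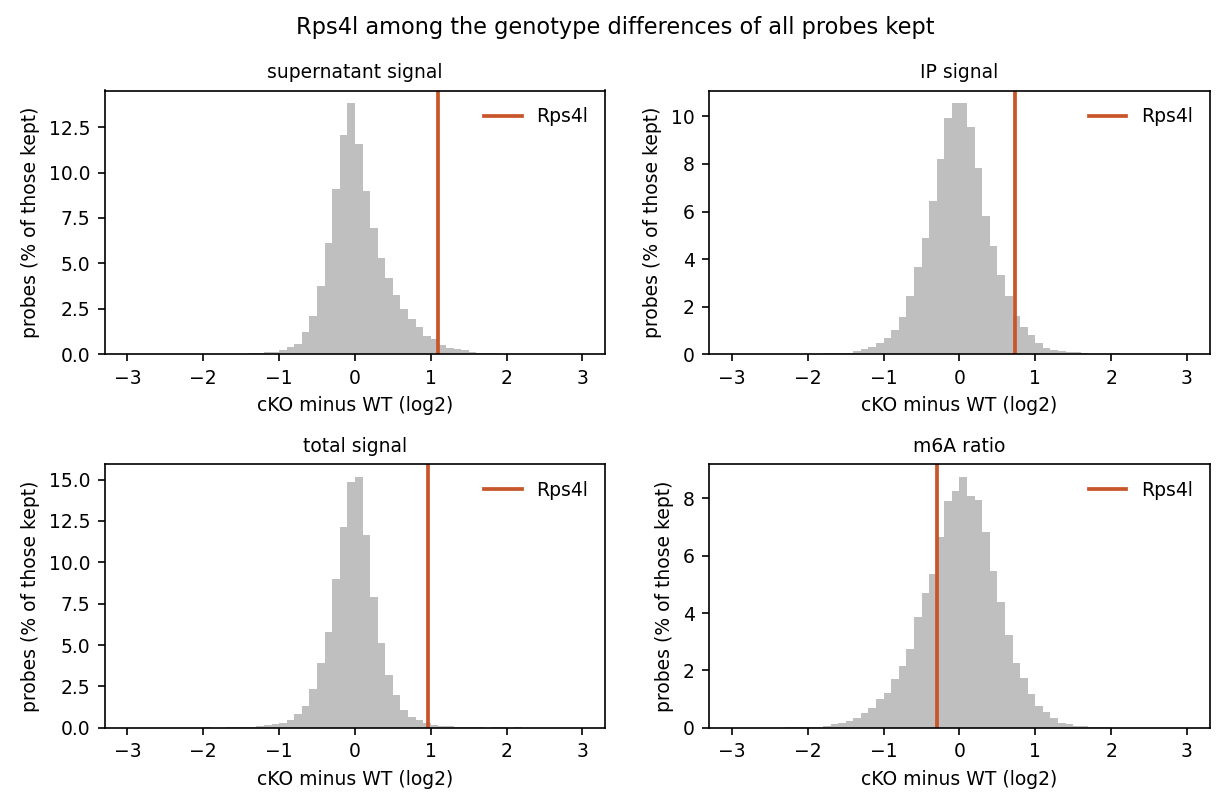
Percent of kept probes (y axis) by cKO minus WT difference in log2 units (x axis, bins of 0.1, values beyond the axis counted in the end bins) for the supernatant signal, the IP signal, the total signal and the m6A ratio. The line marks Rps4l, at 1.09, 0.74, 0.96 and -0.30, which lies far to the right in the first 3 and inside the bulk of probes in the ratio. The probe was chosen by its higher total and supernatant signal in cKO, so nothing is read from its place.

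The scan moved with the genotype, since WT arrays 1 and 3 were read in a scan without cKO arrays. Among the arrays of the scan that holds both genotypes, 1 WT and 3 cKO, the differences were 1.24 in the supernatant, 1.03 in the IP fraction and 1.17 in total signal, in each case larger than over all 6 arrays. WT array 2, the WT array of that scan, had the lowest scaled signal of all 6 arrays in both fractions and in the total, whereas in processed signal, before scaling, it was the highest of the WT arrays in both fractions.

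The choice of scale set part of the size. With spike-in control probes in place of the 75th percentile, the difference was 1.65 in the supernatant, 0.54 in the IP fraction and 1.22 in total signal, and the genotypes then overlapped in the IP fraction. With spike-in scaling the median difference of all probes was 0.56, -0.20 and 0.17, against 0.00, -0.01 and -0.01 with the 75th percentile. Relative to the median probe, Rps4l differed by 1.09 in the supernatant and 0.75 in the IP fraction, values that no scaling of a whole channel can change. In total signal, where the weight of the channels changes, it differed from the median probe by 0.92 to 1.05 over 4 scalings.

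The m6A ratio is the log2 ratio of IP to supernatant processed signal, centred on the median of the probes kept on that array, and it asks how much of a transcript the antibody recovered compared with other transcripts. The ratio of Rps4l was below the median probe on all 6 arrays. WT kidneys 1, 2 and 3 had -0.69, -0.71 and -0.46, and cKO kidneys 1, 2 and 3 had -1.0, -0.98 and -0.80. In WT the mean was -0.62 ± 0.14 (SD, n = 3), and limma's moderated test against 0 gave an adjusted p of 0.0054. In cKO the mean was -0.92 ± 0.11 (SD, n = 3), for which the same limma fit over 28084 probes gave 0.000843 as adjusted p. Such a call is common, since 33.5% of probes were called below the median probe in WT and 29.4% in cKO, and 33.3% and 28.6% were called above it. The supernatant signal by which the probe was chosen is the denominator of this ratio, so in neither genotype is the adjusted p independent of the choice, and both are given as a description. A lower ratio than that of Rps4l was measured for 30.1% of probes in WT and 18.2% in cKO.

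The WT call was lost in 2 alternatives. With normexp on median spot signals and no dye normalisation the WT ratio was -0.25 ± 0.71 (SD, n = 3), where limma gave an adjusted p of 0.385. When loess and Aquantile normalisation followed that normexp step it was -0.48 ± 0.25 (SD, n = 3), and limma's adjusted p was 0.00277. With the ratio centred on spike-in controls it was -0.33, with an adjusted p of 0.167 in limma. The adjusted p ranged from 0.00277 to 0.385 over 14 alternatives in WT, of which 12 kept the call, and from 0.0001 to 0.0264 in cKO, where all 14 kept it. All IP RNA carried Cy5 and no dyes were swapped, so recovery by the antibody and any preference of this probe for a dye cannot be told apart.

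Between genotypes the ratio was lower in cKO by a small amount. The difference was -0.30 ± 0.10 (SE), and the gap between the lowest WT array (WT 2) and the highest cKO array (cKO 3) was 0.09. As many as 10.4% of probes had all cKO ratios below all WT ratios, and 25% had a difference at least as negative, so the ratio of Rps4l lay in the bulk of the distribution. Expressed as a share, the IP channel held 38.9%, 37.3% and 43.0% of the summed scaled signal in WT kidneys 1, 2 and 3, against 33.3%, 32.9% and 36.0% in cKO kidneys 1, 2 and 3. With normexp the difference in ratio was -0.52, with background-subtracted signals -0.19, and in both the genotypes overlapped. Centred on all probes, dim ones included, it was -0.47, and within the scan that holds both genotypes it was -0.21.

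**Figure D3:**
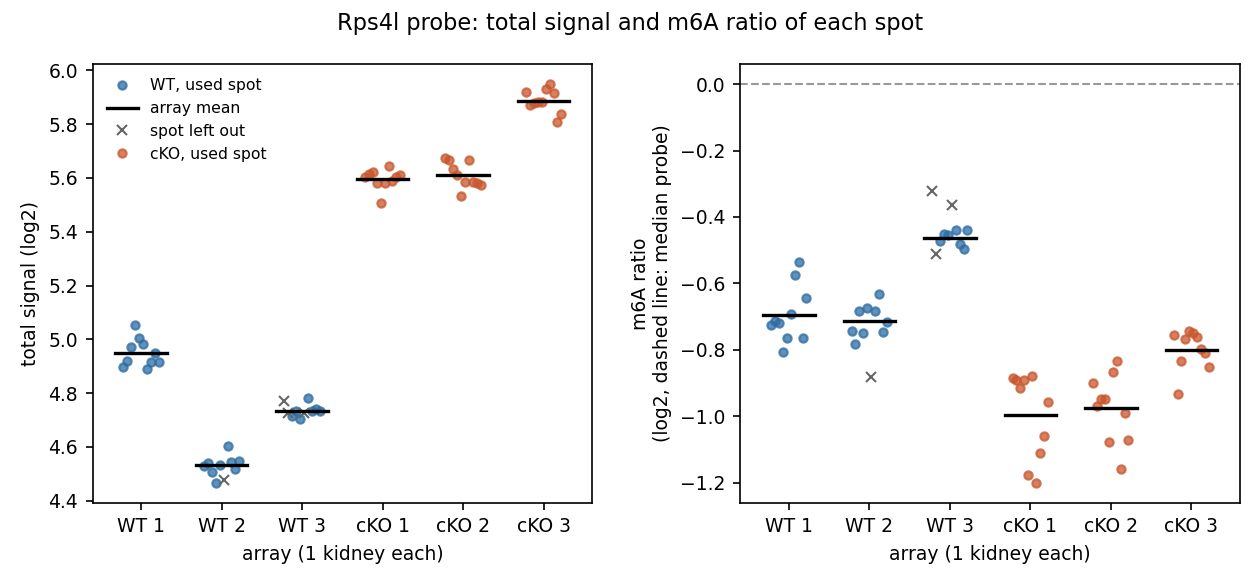
Total signal (left, log2) and m6A ratio (right, log2 IP over supernatant, dashed line at the median probe) of the Rps4l probe at each spot, by array (1 kidney each). Dots are spots used, bars the array means and crosses the spots left out. The total signal ends at 5.05 in WT and begins at 5.51 in cKO, whereas the ratios of the genotypes overlap between -0.81 and -0.74 at the level of spots.

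The 10 spots repeat the measurement on 1 array. Within an array the SD over spots was 0.02 to 0.08 log2 units in the supernatant and 0.03 to 0.11 in the IP channel. Between arrays of a genotype the SD was 0.20 (WT) and 0.13 (cKO) in the supernatant and 0.26 and 0.23 in the IP channel, in both cases more than over spots. In the ratio the SD over spots was 0.02 to 0.13 and that between arrays 0.14 (WT) and 0.11 (cKO), so there the least even array varied more over spots than the cKO arrays did among themselves. In total signal the highest of 26 WT spots was 5.05 and the lowest of 30 cKO spots was 5.51, and in both single fractions 0 WT spots reached the lowest cKO spot. In the ratio the spots overlapped, with 7 of 26 WT spots at or below the highest cKO spot and 6 of 30 cKO spots at or above the lowest WT spot. Spots of 1 array share its RNA, so they are repeated measurements and not replicates of a genotype.

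The spread over spots was compared with that of other probes. Over 27 probes with 10 spots that were well above background in both channels on every array, the median spot SD in the supernatant was 0.04 for Rps4l, the lowest of the 27, against a median of 0.08 and a highest value of 0.15. In the IP channel Rps4l had 0.06, with 13 of the 27 probes lower. The 10 spots lie apart from each other over the array, and their mean deviations from the array mean ranged from -0.02 to 0.03 in the supernatant and from -0.05 to 0.05 in the IP channel, which is small beside the difference between genotypes.

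The named genes whose total signal was most like that of Rps4l were found as the smallest root mean square distance over the 6 arrays, after each gene's own mean was subtracted. They were Nup50, a component of the nuclear pore, at 0.18 log2 units, H2-M2, a class I histocompatibility gene, at 0.19, and H2-Q7, another class I gene, at 0.22. These genes share the arrays, scans and scaling with Rps4l, and the likeness is a description of 6 arrays. The next gene, Mbp, was at 0.28 and the farthest, Kcnn2, at 1.22.

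Nup50 had a total signal of 2.01, 1.14 and 1.73 in WT kidneys 1, 2 and 3, against 2.46, 2.18 and 2.68 in cKO kidneys 1, 2 and 3, and it too was lowest on WT array 2. Its supernatant signal differed by 1.21 ± 0.21 (SE) and its IP signal by 0.66 ± 0.33, with overlap in the latter. H2-M2 had 4.88, 4.64 and 4.84 (WT) against 5.93, 5.53 and 5.61 (cKO), and its highest array was cKO 1 rather than cKO 3. Both of its fractions differed by nearly the same amount, 0.92 ± 0.19 in the supernatant and 0.89 ± 0.10 in the IP fraction, so its ratio differed by 0.02 ± 0.14. Rps4l, in contrast to H2-M2, differed by 0.35 more in the supernatant than in the IP fraction, a contrast between the genes that was not tested. This was not particular to Rps4l. Of 33 other named genes, 15 had a larger difference in ratio, counting both directions, and Nup50 was among them with -0.50 ± 0.10 (SE). Over all 28084 probes kept for the ratio, the lower and upper quartiles of this difference were -0.30 and 0.33. A difference of the size of that of Rps4l was therefore common among all probes too. H2-Q7 had 6.90, 6.36 and 6.63 (WT) against 7.32, 6.94 and 7.39 (cKO), groups that were separated by only 0.04.

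**Figure D4:**
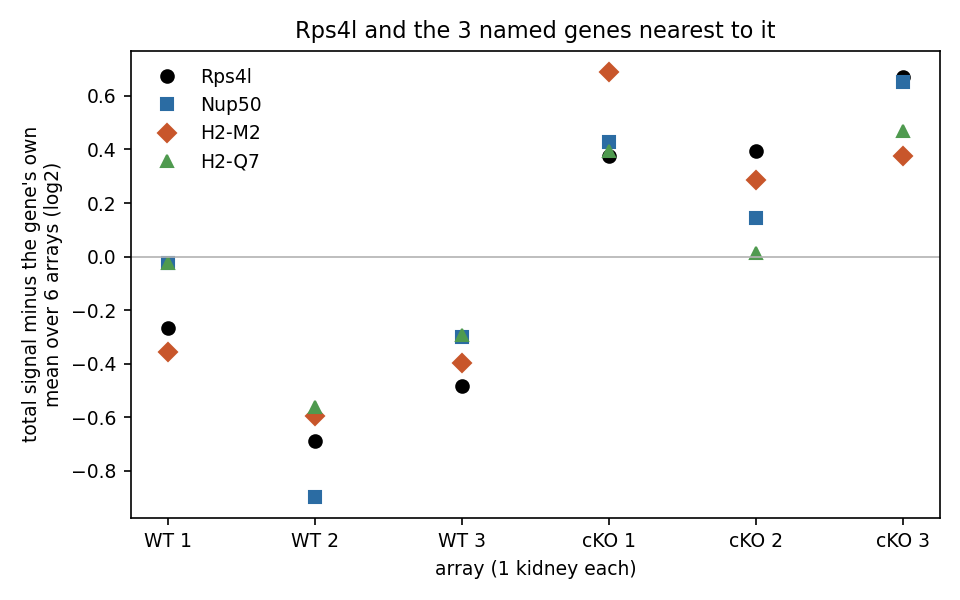
Total signal of Rps4l, Nup50, H2-M2 and H2-Q7 on each array (1 kidney each), in log2 units after subtraction of each gene's own mean over the 6 arrays. All 4 genes are lowest on WT array 2, and all 4 lie above their mean on the cKO arrays and below it on the WT arrays.

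From the lists of related genes and of other cells only 3 further genes had a named probe. Taf1a encodes a subunit of the factor that recruits RNA polymerase I to the genes for ribosomal RNA. Its total signal was 0.73, 0.97 and 0.97 (WT) against 0.91, 0.79 and 1.25 (cKO), so the genotypes overlapped, and only 1 of 3 WT arrays detected it in the supernatant. Mzb1, a chaperone of plasma cells, had -0.96, -0.93 and -0.75 (WT) against -1.04, -0.66 and -1.22 (cKO), again with overlap. Like Taf1a, Mzb1 was detected in the supernatant on only 1 of 3 WT arrays. Mbp, a myelin protein gene used as a marker of nerve sheath, had -1.35, -1.18 and -0.95 (WT) against -0.82, -0.48 and -0.25 (cKO). All its cKO values were above all its WT values, with a difference of 0.64 ± 0.20 (SE). It was detected in the IP channel on all 6 arrays, where its signal did not overlap between genotypes either (0.58 ± 0.22), whereas its supernatant signal passed detection on 0 of 3 WT and 2 of 3 cKO arrays. The part of nerve tissue in the Rps4l values was not tested.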

How the data were processed

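The deposited files are Agilent Feature Extraction output, which the submitters' processing notes give as version 11.0.1.1, and hold linear intensity values of both colours at 62976 spots; per the file headers the deposited processed intensity is background-subtracted and dye-normalised. No dyes were swapped, per the labels' protocols. The members and lists were chosen with earlier results of these data known.

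R 4.3.3 was used, with the packages limma 3.58.1 and data.table in version 1.17.8. Flagged spots were left out and the log2 spot signals of a probe averaged. Each channel was divided by its 75th percentile (quantile 0.75). A probe was kept if well above background on at least 3 arrays (at least 0.5 of its spots) and unflagged on all 6. The ratio needed this of red and green, the total signal of one of them, and a fraction of its own channel. The ratio was centred on the median of kept probes. It was tested against 0 with limma's lmFit and eBayes, both genotypes in 1 fit, two-sided, with Benjamini-Hochberg adjustment over all kept probes and a threshold of 0.05. This fit was also run on simulated data with independent noise of the fit's own variances. That run held no effect of dye, scan or centring, so it cannot speak to them. The SE of a genotype difference comes from the SDs over arrays. Of 50 probes with 10 spots, 45 matched a RefSeq symbol by accession.

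Alternatives were normexp (offset 50) with and without loess and Aquantile, background-subtracted signals (floor 1), other scaling, centring, filters and spot averages, blocks, and leaving out each array. The block planned for the slide used the scan, the batch that the headers give; normexp used median spot signals, the ones read here. The named genes were the 3 with the smallest distance to Rps4l in total signal. Labels call the animals biological replicates.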

Additional observations from a re-analysis of the deposited data

How the results depend on the processing

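All 4 genotype differences of Rps4l kept their direction in every alternative run (18 for the signals, 19 for the ratio), from 0.82 to 1.22 in total signal, 0.85 to 1.65 in the supernatant, 0.54 to 1.03 in the IP fraction and -0.52 to -0.19 in the ratio. The runs without 1 array, with a block or within 1 scan could not have reversed them, since the main values did not overlap between genotypes. The values that moved by more than the SD between arrays were, for the supernatant, 1.34 with normexp, 0.85 scaled on the median and 1.65 on spike-in controls; for total signal, 1.22 on spike-in controls and 1.17 with the scan as a block or within the scan of both genotypes; for the IP fraction, 1.03 in the latter pair of settings; and for the ratio, -0.52 with normexp, -0.47 centred on spike-in controls and -0.47 centred on all probes, which was added after seeing the data. The cause was not tested. Without 1 array the differences ranged from 0.86 to 1.06 (total), 1.01 to 1.21 (supernatant), 0.59 to 0.83 (IP) and -0.36 to -0.22 (ratio). The replicate numbers are not stated to pair animals, and the deviations of same-numbered arrays correlated at -0.09, 0.24 and -0.03. A replicate block cannot change differences between groups of equal size, here 0.96, 1.09, 0.74 and -0.30. With it their SE were 0.16, 0.16, 0.16 and 0.02. The SE of 0.02 for the ratio, against 0.10 without the block, rests on a pairing that is not stated and is no gain in precision.

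The WT ratio against the median probe was no longer called with normexp without loess (-0.25) or centred on spike-in controls (-0.33), and was called without any 1 WT array (-0.70 to -0.58). The cKO ratio was called in all 14 alternatives (-0.99 to -0.77). In every setting the supernatant signal by which the probe was chosen is part of the ratio, so neither call is independent of the choice. Of 28084 probes, 18753 were called in WT and 16274 in cKO. Over the alternatives, some of which tested other sets of probes, the counts ranged from 13418 to 21569 in WT and from 12021 to 20063 in cKO. No depth limit applied to Rps4l itself, which was at least 28.2 times brighter than its local background.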
